A study of Mus with 9 samples.

Results

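The genes described here encode the chemokines and the receptors they act on, in the kidneys of ageing mice. They were taken from the table of all genes as every protein-coding gene whose symbol begins with Ccl, Ccr, Cxcl or Cxcr followed by a digit, together with Cx3cl1, Cx3cr1, Xcl1, Xcr1 and Ackr1 to Ackr4. This gave 67 gene identifiers with 61 symbols among the 54532 genes of the table, of which 44 were ligands and 23 were receptors. Chemokines are small secreted proteins that attract leukocytes along a gradient, and their receptors are G protein-coupled receptors on the surface of the responding cell. CC ligands such as Ccl2 mainly draw monocytes and lymphocytes, CXC ligands such as Cxcl1 draw neutrophils, and the CXC ligands that interferon induces draw T cells. Atypical receptors bind chemokines without G protein signalling and remove them. In the kidney, injured tubules, endothelium and infiltrating leukocytes are all known sources of chemokines.

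RNA was sequenced from the kidneys of 9 male C57BL/6 mice, with 1 library per mouse and 3 mice in each of the groups named 18 mo, 21 mo and 21 mo/O304. All of the mice lost 1 kidney by surgery at 18 months of age. The 18 mo group was killed 1 week later. The 21 mo group received saline and the 21 mo/O304 group received O304, an activator of the energy-sensing kinase AMPK, by intraperitoneal injection over 12 weeks, the compound at a daily 10 mg per kg. The 18 mo mice thus differed from both other groups in age, in the time since surgery and in having had no such injections, and the parts of these cannot be told apart.

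The libraries held between 15636378 and 18396725 counts on genes, so that 1 count was worth 0.0458 to 0.0669 CPM (counts relative to the library total, scaled by edgeR's TMM method). Of all genes, 15902 passed a filter on low counts and were tested with edgeR's quasi-likelihood test, in which an adjusted p under 0.05 was taken as a call. Levels written with ± are means and SD of the 3 mice of a group, and fold changes written with ± carry their SE. The spread between mice was unequal, with a biological coefficient of variation (the spread between mice relative to a gene's level) of 18.0%, 44.0% and 20.6% in the order 18 mo, 21 mo and 21 mo/O304. Markers of the proximal tubule were measured in every library, as the labelled tissue requires, but their summed level was 5959 and 1602 CPM in replicates 2 and 3 of the 21 mo group, against 11233 to 14510.5 CPM in the other 7 libraries. Summed macrophage markers ranged from 312 to 528, from 785 to 3797 and from 581 to 628 CPM in the same order. No marker on the lists used was at 0 in all libraries. In whole tissue, more cells of a type and more RNA per cell cannot be told apart.

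Of the 67 gene identifiers, 39 passed the filter, 26 of them ligands and 13 receptors. The remaining 28 comprised 5 with no count in any library, 10 with 1 to 9 counts in all and 13 with at least 10. Among the sparse receptors were Ccr3 with 7 counts in all, Ccr6 with 12, Ccr8 with 13 and Cxcr1 with 2, so the eotaxin receptor Ccr3 and the Ccl20 receptor Ccr6 could barely be measured at this depth. The symbols Ccl19, Ccl21a, Ccl21b, Ccl21c and Ccl27a occurred on more than 1 identifier each, 11 in all, on chromosome 4 and on unplaced sequences of the assembly. Counts of these genes are uncertain, since reads could be split between copies. Of the tested genes, 10 overlap an annotated neighbour, among them Ccl2, Ccl6, Cxcl10, Cxcl16, Cx3cr1 and Cxcr6, and neighbouring reads could enter their counts.

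The order of the chemokines within the kidney was read from FPKM, the authors' length-scaled values, as mean ± SD of 3 mice. In the 18 mo group 4 ligands stood above all others. They were Cx3cl1 (fractalkine, a membrane-bound ligand) at 27.0 ± 2.81 FPKM, Cxcl14 at 21.5 ± 5.91 FPKM, Cxcl12 (the stromal ligand of Cxcr4) at 20.03 ± 5.46 FPKM and Cxcl16 (also membrane-bound) at 17.1 ± 3.52 FPKM. Neighbours in this order differed by less than the sum of their SDs, while the next ligand, Ccl6, was at 5.004 ± 0.53 FPKM. In the 21 mo group the order was led by Ccl6 at 44.7 ± 59.9 FPKM, Cxcl16 at 38.7 ± 16.7 FPKM, Ccl8 at 35.3 ± 23.3 FPKM and Cxcl13 at 30.7 ± 51.5 FPKM, and Cx3cl1 came at rank 6 at 27.3 ± 9.28 FPKM. The SDs of Ccl6 and Cxcl13 exceeded their means, and these ranks rest on replicate 3. In the 21 mo/O304 group Cx3cl1 was again first at 23.3 ± 0.85 FPKM, followed by Cxcl16 at 19.0 ± 2.52 FPKM and Ccl8 at 15.9 ± 13.3 FPKM.

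Among receptors Ackr3, which takes up Cxcl12, was first in each group, at 17.0 ± 3.12, 17.1 ± 3.37 and 19.9 ± 1.73 FPKM in the order 18 mo, 21 mo and 21 mo/O304. It made up 55.9%, 32.2% and 45.7% of the summed mean receptor FPKM. Behind it in the 18 mo group came Cxcr4 at 3.23 ± 0.46 FPKM, Cx3cr1 at 2.23 ± 0.55 FPKM and Ccr2 at 2.14 ± 0.50 FPKM, of which the last 2 differed by less than their SDs. Ccr1 stood at rank 11 in the 18 mo group at 0.26 ± 0.26 FPKM, at rank 2 in the 21 mo group at 10.4 ± 14.3 FPKM and at rank 9 in the 21 mo/O304 group at 0.77 ± 0.26 FPKM. Summed over all ligands, the level was 107 to 149 FPKM in the 18 mo mice, 160.5, 242 and 637 FPKM in the 21 mo mice (replicates 1 to 3) and 114 to 173 FPKM in the 21 mo/O304 mice.

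**Figure D1:**
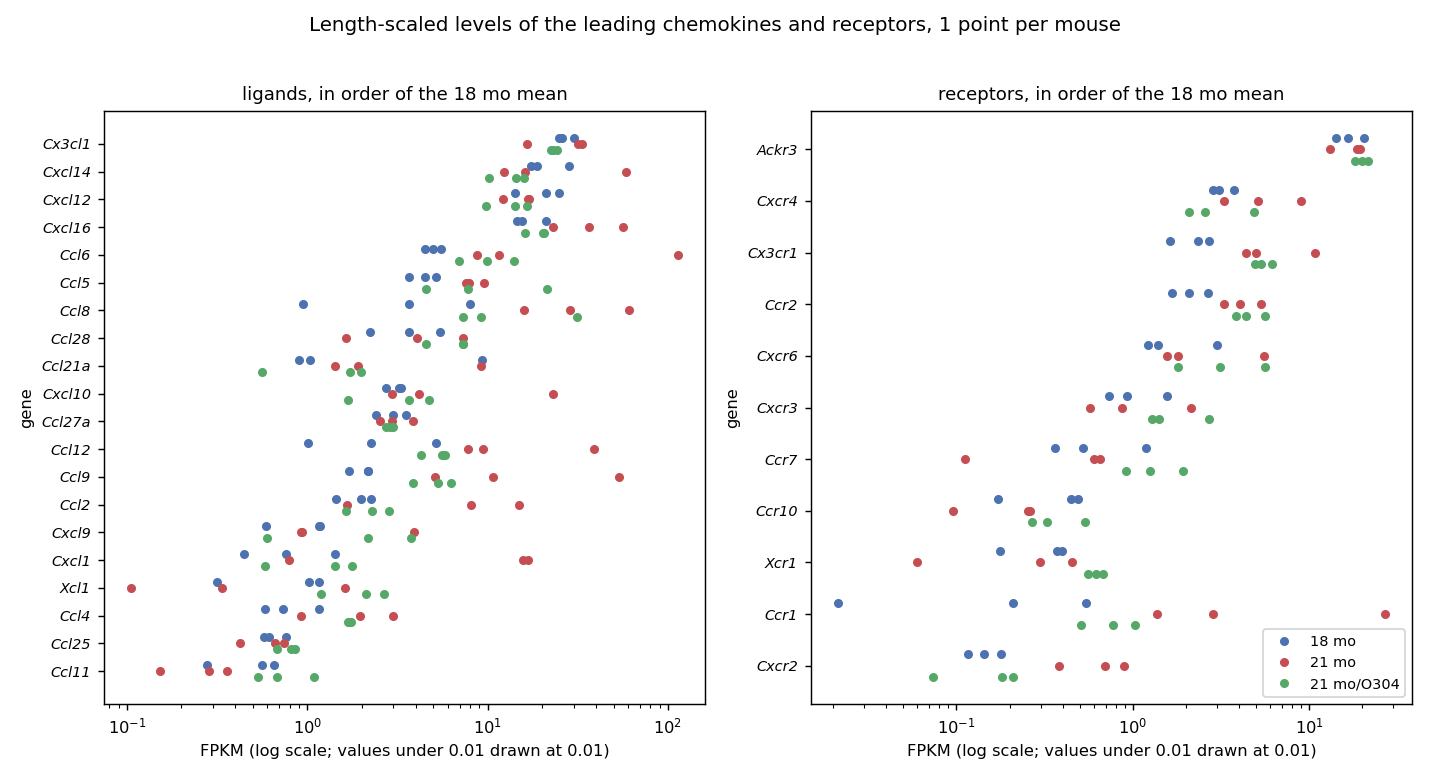
FPKM on a log axis for 20 ligands and 11 receptors with high 18 mo means, 1 point per mouse, coloured by group. Cx3cl1 leads the ligands and Ackr3 the receptors in the order of 18 mo means, while Ccl6, Ccl9 and Ccr1 reach far to the right in a single mouse of the 21 mo group. Ccl8 lies to the right of the 18 mo mice in every 21 mo mouse.

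The first comparison asked how the kidneys of 21-month-old mice differed from those at 18 months. Many chemokine genes stood higher in the 21 mo group, led by the CC ligands of monocytes, the neutrophil ligands Cxcl1 and Cxcl2, and the receptors Ccr1, Ccr2 and Cx3cr1, but none passed the threshold in edgeR. The number called was 0 of 39, where 0.0189% of all genes tested were called. At an unadjusted p under 0.05, 18 of 39 were higher and 0 lower, against 14.0% higher and 12% lower among all genes tested. The median log2 fold change was 0.97 over the 39 genes and 0.03 over all genes, and 32 of 39 fold changes were above 0, against 52.7% of all genes. All 3 mice of the 21 mo group lay above all 3 of the 18 mo group for 12 of 39, and all 3 lay below for 0, against 13.5% and 15.3% of all genes. Among these 12 were Ccl5, Ccl6, Ccl7, Ccl8, Ccl9, Ccl12, Cxcl16, Ccr1, Ccr2, Cxcr2 and Cx3cr1. For a single gene the exact permutation test of 3 mice against 3, two-sided, cannot give a p under 0.1, which each of these 12 reached.

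The count of calls depended on the test and on single libraries. DESeq2 called 16 of the 42 chemokine genes to which it gave an adjusted p, all higher, where it called 12.3% of all genes. Without replicate 1 of the 21 mo group edgeR called 19 of the 44 chemokine genes then tested, all higher, where 25.4% of all genes were called. Without replicate 3 it called 2 of 39, Ccl9 among them, where 0.806% of all genes were called. With every gene of at least 1 count kept it called 15 of 62, where 2.04% of all genes were called. Limma voom with sample quality weights called 23 of 39, of which 16 were higher and 7 lower, where it called 52.9%.

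The 9 CC ligands that attract monocytes and macrophages were all tested and all had a fitted fold change above 0 in the 21 mo group. Their median was 2.74 on the log2 scale, and 7 had an unadjusted p under 0.05, against 14.0% of all genes that were higher. Among the 9, Ccl2, Ccl7, Ccl8 and Ccl12 are monocyte chemoattractants whose genes lie close together on chromosome 11. Ccl2, the chief ligand of Ccr2, lies from 82035571 to 82037453 on GRCm38 and overlaps Gm17268. It was at 2.35, 1.66 and 2.66 CPM in the 18 mo mice and at 1.94, 9.55 and 17.7 CPM in the 21 mo mice (replicates 1 to 3), with a log2 change of 2.13 ± 0.65 (SE, edgeR adjusted p = 0.098). Replicate 1 of the 21 mo group lay within the 18 mo range, so the groups overlapped, and without replicate 3 the change was 1.35.

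Ccl7, which acts on several monocyte receptors and lies from 82045712 to 82047525 on chromosome 11, was at 0.43, 0.37 and 0.28 CPM in the 18 mo mice. These values rest on just 7, 6 and 5 counts. In the 21 mo mice it was at 1.47, 3.86 and 23.0 CPM, with a log2 change of 4.69 ± 1.03 (SE, edgeR adjusted p = 0.0651). The groups did not overlap, and the 21 mo replicates spread over more than a factor of 10. Without replicate 3 the change was 2.85. Ccl12, a mouse ligand of Ccr2, was at 2.91, 0.55 and 1.24 CPM in the 18 mo mice and at 5.22, 4.32 and 21.8 CPM in the 21 mo mice. Its log2 change was 2.74 ± 0.74 (SE, edgeR adjusted p = 0.084) and became 1.58 without replicate 3. Ccl8 was at 4.27, 0.49 and 1.92 CPM against 8.43, 15.1 and 32.5 CPM, a log2 change of 3.07 ± 0.85 (SE, edgeR adjusted p = 0.0848). For both genes the lowest 21 mo mouse was above the highest 18 mo mouse.

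Ccl6 and Ccl9, ligands of Ccr1 that macrophages produce, had narrow 18 mo ranges and 1 outstanding 21 mo mouse. Ccl9, from 83572919 to 83578636 on chromosome 11, was at 5.45, 6.78 and 6.79 CPM in the 18 mo mice and at 16.1, 33.8 and 169 CPM in the 21 mo mice. Its log2 fold change was 3.52 ± 0.77 (SE, edgeR adjusted p = 0.0658), and 1.96 with an adjusted p of 0.0481 in the fit without 21 mo replicate 3. Ccl6 was at 9.35, 8.20 and 10.2 CPM against 16.2, 21.3 and 212 CPM, a log2 change of 3.17 ± 0.91 (SE, edgeR adjusted p = 0.0885), which became 1.00 without replicate 3. Neither gene's groups overlapped, and replicates 1 and 2 alone lay clearly above the 18 mo mice.

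Ccl5, which T cells secrete, differed less but more evenly. It was at 3.65, 4.37 and 5.15 CPM in the 18 mo mice and at 9.50, 7.56 and 7.83 CPM in the 21 mo mice, a log2 change of 0.91 ± 0.49 (SE, edgeR adjusted p = 0.263). The groups did not overlap. Ccl4, which macrophages and T cells secrete, had a mean of 0.56 ± 0.21 CPM at 18 months against 1.34 ± 0.72 CPM in the 21 mo mice, with overlapping groups. Ccl3 had means of 0.39 ± 0.36 and 0.89 ± 0.82 CPM.

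The markers of macrophages moved with this group of ligands. All 9 markers had a fold change above 0 in the 21 mo group, 8 of them with an unadjusted p under 0.05, where 14.0% of all genes were higher. The summed level of the markers was 528, 312 and 408 CPM in the 18 mo mice and 785, 1249.6 and 3797 CPM in the 21 mo mice. Replicate 3 of the 21 mo group thus held the highest level of the macrophage markers and of Ccl2, Ccl6, Ccl7, Ccl8, Ccl9 and Ccl12 alike. Its fibroblast markers, at 1388.5 CPM summed, were also the highest of the 9 libraries, and its proximal tubule markers the lowest. The part of these differences in the chemokine values was not tested.

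**Figure D2:**
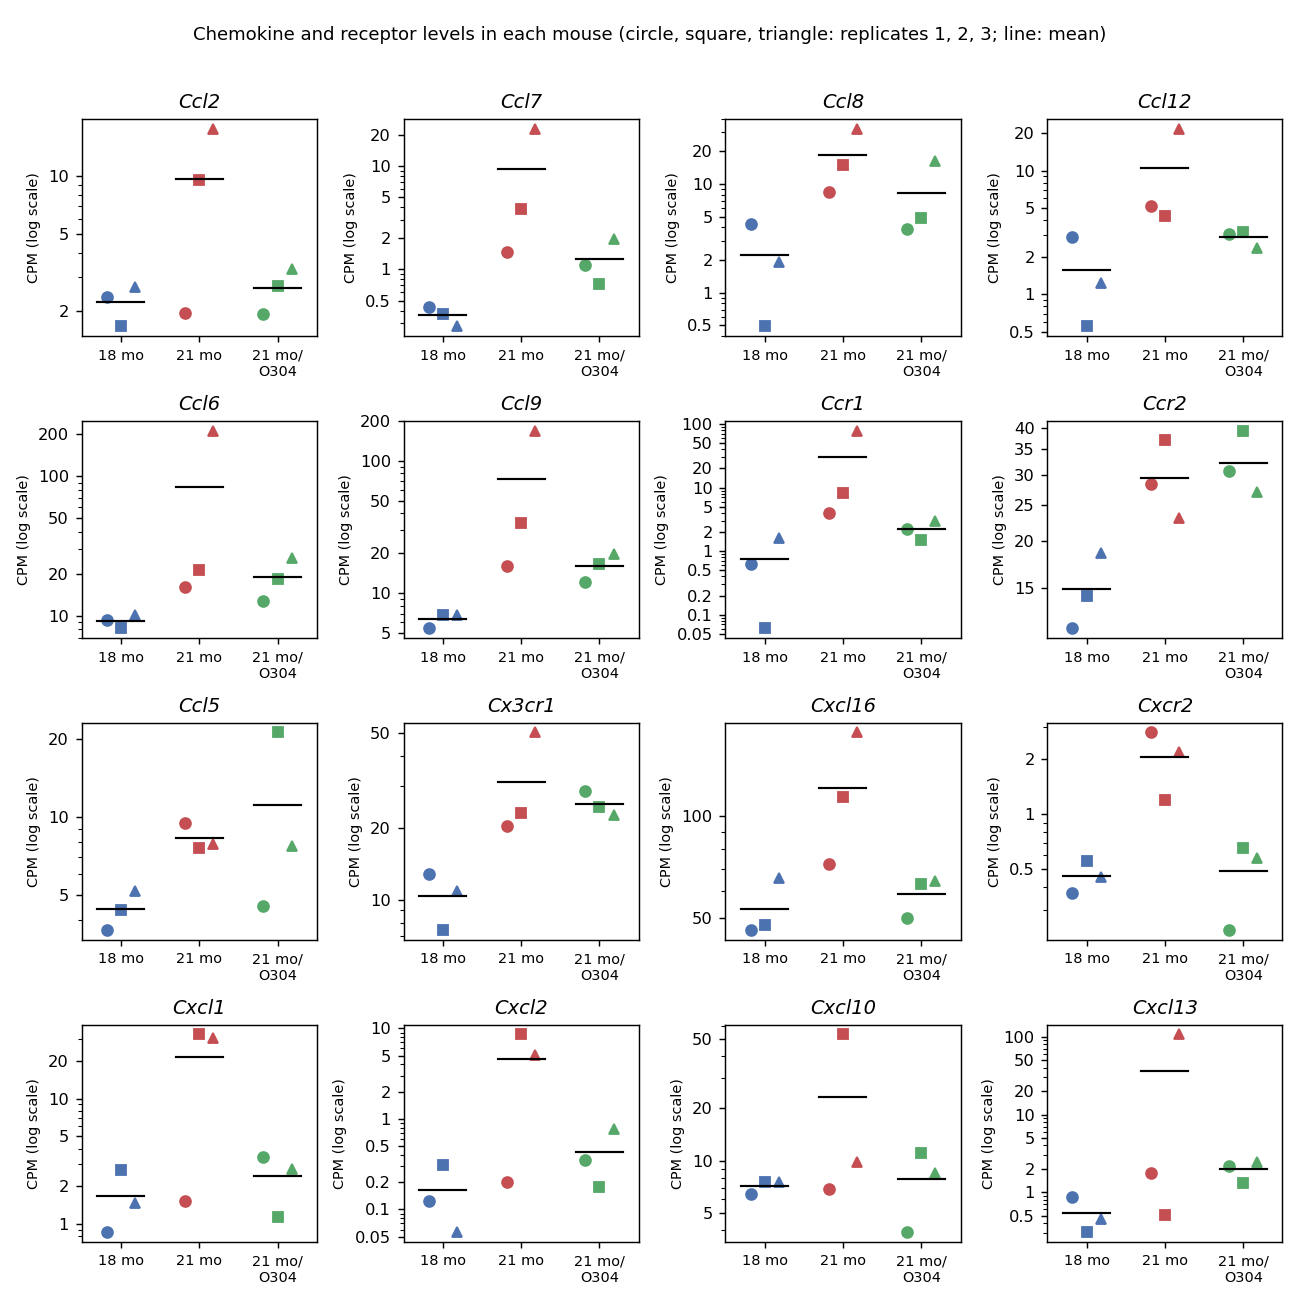
CPM on log axes for 16 chemokine and receptor genes, with 1 symbol per mouse and a line at the group mean. Triangles mark replicate 3, which is the highest 21 mo mouse for Ccl2, Ccl6, Ccl7, Ccl8, Ccl9, Ccl12 and Ccr1, whereas replicate 2 is the highest for Cxcl1, Cxcl2, Cxcl10 and Ccr2.

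The 5 CXC ligands that attract neutrophils lie together on chromosome 5 from 90759360 to 90905938, and 2 passed the filter. Cxcl1 was at 0.87, 2.71 and 1.47 CPM in the 18 mo mice and at 1.54, 32.5 and 30.7 CPM in the 21 mo mice, a log2 change of 3.68 ± 0.97 (SE, edgeR adjusted p = 0.081). Cxcl2 was at 0.12, 0.31 and 0.057 CPM against 0.20, 8.58 and 5.04 CPM, a log2 change of 4.78 ± 1.23 (SE, edgeR adjusted p = 0.0775). Its 18 mo values rest on 2, 5 and 1 counts and that of 21 mo replicate 1 on 3, where single reads weigh heavily. In both genes replicates 2 and 3 of the 21 mo group stood far above every 18 mo mouse and replicate 1 lay within the 18 mo range.

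Cxcl5, which did not pass the filter, followed the same mice, with 0, 4 and 0 counts in the 18 mo group and 8, 223 and 147 counts in the 21 mo group. Cxcl15 had 0 counts in every mouse of the 18 mo and 21 mo/O304 groups and 0, 7 and 44 counts in the 21 mo group. Ccl20, a ligand that epithelium secretes and that draws Ccr6-bearing lymphocytes, had 1, 1 and 0 counts in the 18 mo mice and 2, 71 and 50 in the 21 mo mice. Cxcl17, a mucosal chemoattractant, had 1 count in each 18 mo mouse and 4, 33 and 137 counts in the 21 mo mice. Replicates 2 and 3 of the 21 mo group therefore carried most of the counts of these 4 genes.

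The neutrophil receptor Cxcr2 did not have the same order of mice as its ligands. It lies on chromosome 1 from 74153989 to 74161246 and was at 0.37, 0.55 and 0.45 CPM in the 18 mo mice. In the 21 mo mice it was at 2.81, 1.19 and 2.20 CPM, a log2 change of 2.15 ± 0.50 (SE, edgeR adjusted p = 0.0697). The groups did not overlap, and replicate 1, with the lowest Cxcl1 of its group, had the highest Cxcr2. Summed neutrophil markers had the order of Cxcr2, at 62.3, 18.8 and 54.0 CPM in the 21 mo mice against 6.47 to 12.3 CPM in the 18 mo mice. Of the 7 markers, Ly6g, Elane and Mpo had at most 14 counts over all libraries. The 4 that were tested were all higher at an unadjusted p under 0.05, where 14.0% of all genes were.

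**Figure D3:**
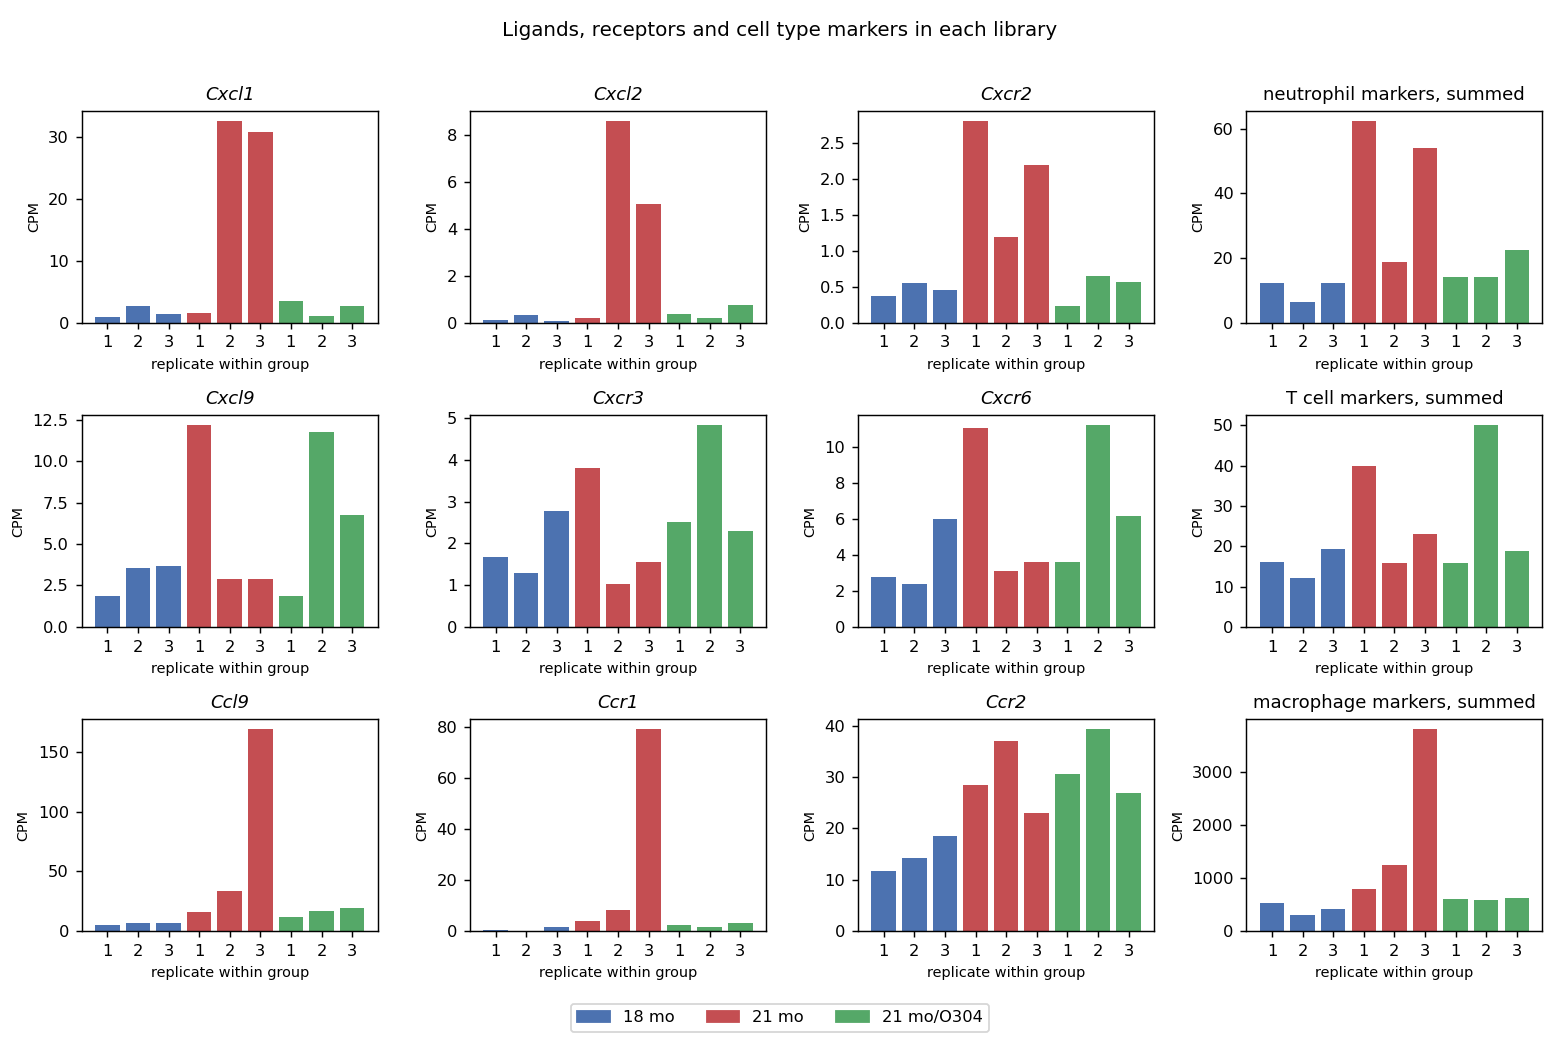
CPM in each library, on linear axes from 0, for neutrophil ligands and receptor, T cell ligand and receptors, monocyte ligand and receptors, and the summed markers of each cell type. Cxcl1 and Cxcl2 are high in replicates 2 and 3 of the 21 mo group, Cxcr2 and neutrophil markers are highest in its replicate 1, and Ccl9, Ccr1 and macrophage markers are highest in its replicate 3.

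The interferon-inducible ligands were each high in a single mouse of the 21 mo group. Cxcl10, on chromosome 5 from 92346638 to 92348889 and overlapping Art3, was at 6.44, 7.58 and 7.52 CPM in the 18 mo mice and at 6.89, 53.4 and 9.80 CPM in the 21 mo mice, a log2 change of 1.70 ± 0.72 (SE, edgeR adjusted p = 0.178). Only replicate 2 was far above the 18 mo range, and without it the change was 0.20. Cxcl9 was at 1.86, 3.57 and 3.68 CPM in the 18 mo mice and at 12.2, 2.90 and 2.89 CPM in the 21 mo mice, so that here replicate 1 was the high one. Their shared receptor Cxcr3, carried by activated T cells, was at 3.81, 1.02 and 1.56 CPM in the 21 mo mice and had its highest value of the group in the same mouse as Cxcl9. Summed T cell markers were 39.9, 15.8 and 23.1 CPM in these mice, and summed NK cell markers 11.5, 2.84 and 4.26 CPM. The part of T and NK cell content in the values was not tested.

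Among the other CXC ligands, Cxcl13, which guides B cells into follicles, gave the largest fitted fold change of the 39 genes and rested on 1 mouse. It was at 0.87, 0.31 and 0.45 CPM in the 18 mo mice and at 1.74, 0.51 and 108 CPM in the 21 mo mice, a log2 change of 6.07 ± 1.82 (SE, edgeR adjusted p = 0.094) that became 1.02 without replicate 3. The groups overlapped. Its receptor Cxcr5 had 36 counts over all libraries and was not tested. Cxcl14 was at 112 CPM in replicate 3 and at 30.3 and 23.4 CPM in replicates 1 and 2, against 32.4 to 53.2 CPM in the 18 mo mice. Cxcl12, on chromosome 6 from 117168535 to 117181367, was at 213, 118 and 177 CPM in the 18 mo mice and at 144, 102 and 142 CPM in the 21 mo mice, a log2 change of −0.39 ± 0.27 (SE, edgeR adjusted p = 0.374) with overlapping groups.

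The membrane-bound ligands behaved unlike each other. Cxcl16, the ligand of Cxcr6 and a scavenger receptor for oxidised lipoprotein, lies on chromosome 11 from 70453983 to 70459984 and overlaps Zmynd15. It was at 46.1, 47.8 and 65.8 CPM in the 18 mo mice and at 72.2, 114 and 177 CPM in the 21 mo mice, a log2 change of 1.19 ± 0.30 (SE, edgeR adjusted p = 0.0775), and the groups did not overlap. Without 21 mo replicate 3 the change was 0.79. Cx3cl1, on chromosome 8 from 94772009 to 94782427, was at 106, 99.9 and 122 CPM against 67.5, 128 and 137 CPM, and the 21 mo mice lay on both sides of the 18 mo range. The difference between the fold changes of the 2 genes was not tested.

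The 18 identifiers of CC ligands that direct lymphocytes and dendritic cells gave 6 tested genes whose median log2 change was 0.17. Of these 1, Ccl17, was higher at an unadjusted p under 0.05, a share near the 14.0% of all genes. Ccl17, a ligand of Ccr4, had 1, 3 and 8 counts in the 18 mo mice and 4, 5 and 124 counts in the 21 mo mice. Ccl28, a mucosal ligand of Ccr10 and Ccr3, was at 18.8 ± 7.87 CPM in the 18 mo mice against 21.8 ± 14.3 CPM. Ccl27a, a skin and mucosal ligand of Ccr10, was at 7.31 ± 1.40 against 7.64 ± 1.67 CPM, and Ccl25, a thymic and gut ligand of Ccr9, at 4.99 ± 0.72 against 4.70 ± 1.25 CPM. Ccl11, the only tested eosinophil ligand, was at 0.56 ± 0.22 CPM in the 18 mo mice against 0.30 ± 0.12 CPM, with overlapping groups. The lymphocyte ligand Xcl1 overlaps Gm20743 and had means of 0.45 ± 0.24 and 0.37 ± 0.44 CPM.

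The receptors of monocytes and macrophages were higher in every mouse of the 21 mo group than in any 18 mo mouse for Ccr1, Ccr2 and Cx3cr1. Ccr2, which brings inflammatory monocytes out of the bone marrow and into tissue, lies on chromosome 9 from 124101950 to 124113557 and was at 11.8, 14.3 and 18.6 CPM against 28.4, 37.1 and 23.0 CPM, a log2 change of 0.98 ± 0.24 (SE, edgeR adjusted p = 0.0718). Here replicate 3 was the lowest 21 mo mouse, and the groups did not overlap.

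Ccr1, the receptor of Ccl6 and Ccl9 among others, was at 0.62, 0.062 and 1.58 CPM in the 18 mo mice and at 4.01, 8.30 and 79.2 CPM in the 21 mo mice, a log2 change of 5.31 ± 1.27 (SE, edgeR adjusted p = 0.0718) that became 2.98 without replicate 3. Cx3cr1, the fractalkine receptor of resident macrophages and patrolling monocytes, was at 12.8, 7.46 and 10.9 CPM against 20.4, 23.2 and 50.5 CPM, a log2 change of 1.60 ± 0.35 (SE, edgeR adjusted p = 0.0651). The groups of both genes stood apart, and the change of Cx3cr1 was 1.05 without 21 mo replicate 3. Cx3cr1 spans other annotated genes, Csrnp1 and Wdr48 among them.

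The tested receptors of lymphocytes and dendritic cells had overlapping groups. Cxcr4, the signalling receptor of Cxcl12, was at 6.02 ± 0.79 CPM in the 18 mo mice against 10.8 ± 5.5 CPM. Cxcr6, found on tissue-resident T cells, was at 2.79, 2.40 and 6.00 CPM against 11.04, 3.13 and 3.62 CPM. Ccr7, which brings dendritic cells and naive T cells to lymph nodes, was at 1.41 ± 0.90 and 0.93 ± 0.61 CPM, and Xcr1, a marker of cross-presenting dendritic cells, at 1.45 ± 0.56 and 1.24 ± 0.91 CPM. The atypical receptors Ackr3 and Ackr2, the latter a scavenger of inflammatory CC ligands, also overlapped between groups. Ackr3 was at 58.7 ± 11.3 and 59.1 ± 11.8 CPM, and Ackr2 at 0.38 ± 0.20 and 0.73 ± 0.55 CPM. Ackr4, a scavenger of Ccl19 and Ccl21, and Ackr1, which binds chemokines on venules and erythrocytes, had 56 and 15 counts over all libraries and were not tested.

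Counted mouse by mouse, 22, 18 and 26 of the 39 genes in replicates 1 to 3 of the 21 mo group were above the range of the 18 mo mice, against 31.1%, 37.3% and 41.3% of all tested genes. Below that range were 2, 10 and 3 of the 39, against 33.4%, 36.1% and 40.5% of all tested genes.

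**Figure D4:**
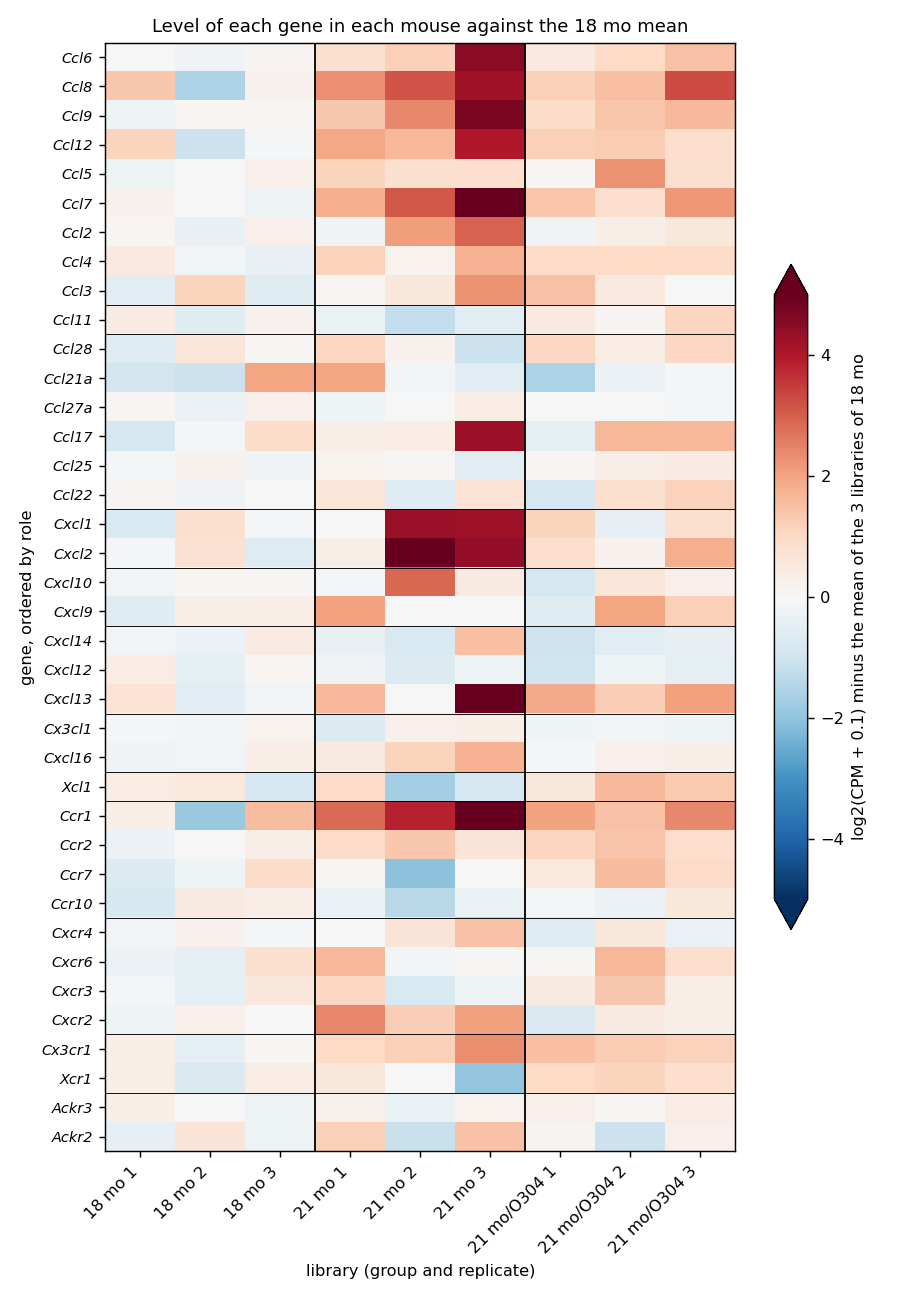
The tested chemokine and receptor genes described here, in each library, as log2(CPM + 0.1) minus the mean of the 18 mo libraries, from blue (lower) to red (higher), with values past the ends of the scale in the end colours. The 3 columns of the 21 mo group differ from one another, with the reddest cells in replicate 3 for Ccl6, Ccl7, Ccl9, Cxcl13 and Ccr1 and in replicates 2 and 3 for Cxcl1 and Cxcl2.

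The second comparison asked how O304 altered the kidneys of 21-month-old mice, and it shares the 21 mo mice with the first. Most of the monocyte ligands, the neutrophil ligands, Ccr1 and Cxcr2 had lower means in the treated mice, while Ccl5 had a higher mean and Ccr2 and Cx3cr1 were near theirs in the 21 mo group. None passed the threshold in edgeR, as was the case for all genes tested (0%), and the smallest adjusted p was 0.175. At an unadjusted p under 0.05, 2 of the 39 were higher and 12 lower, where 8.27% of all genes were higher and 12.4% lower. The median log2 fold change was −0.56 over the 39 genes and −0.02 over all genes. Without 21 mo replicate 3 it was −0.0075 over those of the 39 that were still tested. The fold change was above 0 for 14 of the 39, against 48.2% of all genes. The groups did not overlap for 4 higher genes, Ccl11, Ccr7, Ccr10 and Xcr1, and for 5 lower genes, Ccl12, Cxcl16, Ccr1 and Cxcr2 among them, against 10.8% and 10.5% of all genes. DESeq2 called 10 of the 40 chemokine genes with an adjusted p, all lower, where it called 5.75% of all genes. Voom with quality weights called 22 of 39, of which 9 were higher and 13 lower, where it called 41.1%. Without replicate 1 of the 21 mo group edgeR called 18 of 44, of which 16 were lower, where 23.1% of all genes were called.

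Of the 9 CC ligands of monocytes, 8 had a fitted fold change below 0 under O304, with a median of −1.86. At an unadjusted p under 0.05, 5 of the 9 were lower, where 12.4% of all genes were. Ccl2 was at 1.92, 2.68 and 3.31 CPM in the treated mice, a log2 fold change of −1.89 ± 0.64 against the 21 mo group (SE, edgeR adjusted p = 0.186), and Ccl7 at 1.10, 0.72 and 1.97 CPM, a log2 change of −2.91 ± 0.91 (SE, edgeR adjusted p = 0.177). All treated mice had less of both than replicates 2 and 3 of the 21 mo group, while replicate 1 of that group lay within the treated range. Without its replicate 3 the changes were −1.12 for Ccl2 and −1.07 for Ccl7.

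Ccl12 was at 3.08, 3.22 and 2.36 CPM under O304, below every 21 mo mouse, with a log2 change of −1.86 ± 0.71 (SE, edgeR adjusted p = 0.204) that became −0.71 without 21 mo replicate 3. Ccl9 was at 12.1, 16.6 and 19.7 CPM, a log2 change of −2.18 ± 0.72 (SE, edgeR adjusted p = 0.182), and Ccl6 at 12.9, 18.3 and 25.9 CPM, a log2 change of −2.13 ± 0.86 (SE, edgeR adjusted p = 0.219). Both overlapped the 21 mo group, and without its replicate 3 the fold change of Ccl6 was 0.028 and that of Ccl9 −0.62.

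Ccl8 was at 3.84, 4.83 and 16.4 CPM, a log2 change of −1.16 ± 0.77 (SE, edgeR adjusted p = 0.387), which was −0.49 without 21 mo replicate 3 and −2.11 without treated replicate 3. Ccl5 was at 4.54, 21.2 and 7.70 CPM, and its highest value of all 9 mice was in replicate 2 of the treated group. That mouse also had the highest summed T cell markers, 50.1 CPM against 12.02 to 39.9 CPM in the others, the highest summed NK cell markers, 13.1 CPM, and 11.7 CPM of Cxcl9, 4.83 CPM of Cxcr3 and 11.2 CPM of Cxcr6. The last 2 were the highest values of these receptors in any library.

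The neutrophil ligands were low in all treated mice. Cxcl1 was at 3.43, 1.13 and 2.74 CPM, a log2 change of −3.15 ± 0.94 (SE, edgeR adjusted p = 0.176), and Cxcl2 at 0.35, 0.18 and 0.76 CPM, a log2 change of −3.41 ± 1.09 (SE, edgeR adjusted p = 0.18). Replicate 1 of the 21 mo group was as low, so the groups overlapped. For Cxcl2 the treated mice held just 6, 3 and 12 counts. Cxcl5 had 3, 2 and 2 counts, Ccl20 1, 7 and 4 and Cxcl17 4, 1 and 3. Cxcr2 was at 0.23, 0.66 and 0.57 CPM, below every 21 mo mouse, with a log2 change of −2.07 ± 0.50 (SE, edgeR adjusted p = 0.175). Summed neutrophil markers were 14.0 to 22.4 CPM in the treated mice and 18.8 to 62.3 CPM in the 21 mo mice, and the part of this difference was not tested.

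Cxcl16 was at 50.1, 62.9 and 64.3 CPM under O304, below every 21 mo mouse, with a log2 change of −1.04 ± 0.30 (SE, edgeR adjusted p = 0.175) that became −0.65 without 21 mo replicate 3. Cxcl13 was at 2.15, 1.31 and 2.42 CPM, a log2 change of −4.23 ± 1.60 (SE, edgeR adjusted p = 0.202) that became 0.82 without replicate 3 of the 21 mo group. Cxcl10 was at 3.90, 11.03 and 8.53 CPM, a log2 change of −1.58 ± 0.72 (SE, edgeR adjusted p = 0.25), and overlapped both other groups. That change rests on 21 mo replicate 2, without which it was −0.09. Cx3cl1 spread less among the treated mice than within the other groups, at 93.9, 98.0 and 91.4 CPM, all within the 21 mo range.

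Among the receptors of monocytes, Ccr1 stood lower under O304. It was at 2.27, 1.49 and 2.99 CPM, below every 21 mo mouse, a log2 change of −3.76 ± 1.14 (SE, edgeR adjusted p = 0.176) that became −1.44 without 21 mo replicate 3. Ccr2 was at 30.6, 39.3 and 26.9 CPM, a log2 change of 0.13 ± 0.23 (SE, edgeR adjusted p = 0.751), and Cx3cr1 at 28.7, 24.6 and 22.7 CPM, a log2 change of −0.31 ± 0.34 (SE, edgeR adjusted p = 0.594), and both overlapped the 21 mo group. Summed macrophage markers were 606, 581 and 628 CPM, below every 21 mo mouse. All 9 markers had a fold change below 0, 8 with an unadjusted p under 0.05, where 12.4% of all genes were lower. Neither the part of macrophage content nor the differences between the receptors' fold changes were tested.

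The 4 genes that were higher under O304 with no overlap, a share of the 39 close to the 10.8% of all genes, were all at low levels. Ccl11, the eosinophil ligand eotaxin, had 13, 10 and 19 counts against 6, 3 and 7 in the 21 mo mice, a log2 change of 1.5 ± 0.53 (SE, edgeR adjusted p = 0.19). Ccr7 was at 1.86, 3.93 and 2.55 CPM against 1.34, 0.23 and 1.24 CPM, a log2 change of 1.57 ± 0.67 (SE, edgeR adjusted p = 0.231). Xcr1 was at 2.85, 3.10 and 2.55 CPM against 2.07, 1.36 and 0.27 CPM, and Ccr10, a receptor of Ccl27 and Ccl28 that overlaps Cntnap1, was at 0.582, 0.477 and 0.955 CPM against 0.468, 0.170 and 0.458 CPM. The unscaled counts of Ccr10, at 10, 8 and 15 against 7, 3 and 10, overlapped. Ccl11 and Ccr10 are at counts where single reads weigh heavily. Adipocyte markers were high in the treated group, summing to 57.7, 5.48 and 34.8 CPM against 0.12 to 4.58 CPM in the other 6 mice, and whether fat in the sample bears on these values was not tested.

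The third comparison set the treated mice at 21 months against the 18 mo mice, and it shares groups with both others. Ccr2 and Cx3cr1 were higher in the treated mice. The 9 CC ligands of monocytes had fitted log2 fold changes from 0.24 to 1.90. Of these ligands, 2 were higher at an unadjusted p under 0.05, where 4.33% of all genes were. The fitted changes of Cxcl1, Cxcl16 and Cxcr2 were smaller than their SE. In edgeR 0 of the 39 genes were called, where 0% of all genes were, with a smallest adjusted p of 0.323. At an unadjusted p under 0.05, 5 were higher and 0 lower, where 4.33% of all genes were higher and 5.33% lower, and Ccl5, Ccl8, Ccr2 and Cx3cr1 were among the 5. The log2 change of Ccl5 fell to 0.48 without treated replicate 2, and treated replicate 1, at 4.54 CPM, lay within the 18 mo range. The median log2 fold change was 0.76 over the 39 genes and 0.00 over all genes, and 32 of 39 were above 0, against 50.4% of all genes. The groups did not overlap for 10 higher genes, against 13.2% of all genes, and for 2 lower ones, Cxcl14 and Cx3cl1, against 13.3%. Among the 10 were Ccl4, Ccl6, Ccl7, Ccl9, Cxcl13, Xcl1, Ccr2, Cx3cr1 and Xcr1.

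Ccr2 had a log2 change of 1.11 ± 0.24 (SE, edgeR adjusted p = 0.323) and Cx3cr1 of 1.29 ± 0.35 (SE, edgeR adjusted p = 0.337). Each treated mouse was above each 18 mo mouse for both receptors. DESeq2 called 3 of the 29 chemokine genes with an adjusted p, these receptors among them, where it called 0.884% of all genes. Limma voom with sample quality weights called 3 of 39, again with these receptors among them, where 2.61% of all genes were called. Of the 9 macrophage markers, 2 were higher at an unadjusted p under 0.05 in this comparison, where 4.33% of all genes were. The median log2 fold change was 0.32 over the list of markers. The median of the 9 CC ligands of monocytes was 1.04, all with a fold change above 0. Ccl9 was at 1.34 ± 0.73 (SE, edgeR adjusted p = 0.596), Ccl7 at 1.78 ± 1.03 (SE, edgeR adjusted p = 0.616) and Ccl8 at 1.90 ± 0.83 (SE, edgeR adjusted p = 0.508) on the log2 scale, the last at 0.97 without treated replicate 3.

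Some fitted differences from the 18 mo mice were smaller than their SE. The log2 fold change was 0.15 ± 0.29 (SE, edgeR adjusted p = 0.915) for Cxcl16, 0.08 ± 0.53 (SE, edgeR adjusted p = 0.98) for Cxcr2 and 0.53 ± 0.95 (SE, edgeR adjusted p = 0.903) for Cxcl1. Differences of several SE also went uncalled, as for Ccr2 above, so these values do not show that the levels were equal. The SEs also carry the spread of the 21 mo mice, which are not in this comparison. Cxcl12 was at 82.2, 139.8 and 119.7 CPM in the treated mice, a log2 change of −0.57 ± 0.27 (SE, edgeR adjusted p = 0.533), and the 18 mo mice overlapped them at 118 CPM. Compared with the range of the 18 mo mice, 17, 24 and 28 of the 39 genes were above it in replicates 1 to 3 of the treated group, against 30.0%, 32.3% and 31.7% of all genes, and 8, 3 and 3 were below it, against 30.4%, 32.5% and 31.3%.

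Ligands and receptors that act together did not always share their pattern over the 3 groups. The means of Ccl2 were 2.23 ± 0.51, 9.72 ± 7.87 and 2.64 ± 0.70 CPM in the order 18 mo, 21 mo and 21 mo/O304, while those of its receptor Ccr2 were 14.9 ± 3.46, 29.5 ± 7.07 and 32.3 ± 6.34 CPM. The difference between the patterns of ligand and receptor was not tested. Cx3cl1 had means of 109 ± 11.6, 111 ± 37.9 and 94.4 ± 3.37 CPM, and Cx3cr1 10.4 ± 2.69, 31.4 ± 16.6 and 25.3 ± 3.07 CPM.

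For the ligand Ccl5 the means were 4.39 ± 0.75, 8.30 ± 1.05 and 11.1 ± 8.83 CPM. Cxcl16 had 53.2 ± 10.9, 121 ± 52.6 and 59.1 ± 7.81 CPM, and Cxcr6 3.73 ± 1.97, 5.93 ± 4.43 and 7.0 ± 3.87 CPM. Cxcl1 and Cxcr2 shared a high 21 mo mean, at 1.68 ± 0.94, 21.6 ± 17.4 and 2.43 ± 1.18 CPM for the ligand and 0.46 ± 0.092, 2.07 ± 0.82 and 0.49 ± 0.22 CPM for the receptor. Xcl1 and Xcr1 shared a high treated mean, at 0.45 ± 0.24, 0.37 ± 0.44 and 1.07 ± 0.40 CPM and at 1.45 ± 0.56, 1.24 ± 0.91 and 2.83 ± 0.28 CPM.

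In the pairs of Ccl19 and Ccl20 at least 1 partner was too sparse to compare. Ccl19 had 0, 1 and 20 counts in the 18 mo mice, 0 in every 21 mo mouse and 0, 3 and 4 in the treated mice, against 261 counts of Ccr7 over all libraries. For Ccl28 and Ccr10 the ligand means were 18.8 ± 7.87, 21.8 ± 14.3 and 31.9 ± 7.93 CPM, and the receptor means 0.65 ± 0.30, 0.37 ± 0.17 and 0.67 ± 0.25 CPM.

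Chemokine receptors signal through Gi proteins, phosphoinositide 3-kinase γ, Src family kinases and Rac, and are switched off by receptor kinases, arrestins and RGS proteins. Of 32 genes of this signalling, all tested, 14 had an unadjusted p under 0.05 and were higher in the 21 mo than in the 18 mo group, and 0 lower, where 14.0% of all genes were higher and 12% lower. The median log2 fold change was 0.42. Stat3, a transcription factor that receptors of many cytokines also activate, was at 85.9 ± 4.47, 156 ± 43.5 and 79.1 ± 2.43 CPM in the order 18 mo, 21 mo and 21 mo/O304. Its log2 fold change was 0.86 ± 0.20 in the 21 mo group (SE, edgeR adjusted p = 0.0697) and −0.98 ± 0.20 under O304 against it (SE, edgeR adjusted p = 0.175). The Src family kinase Lyn, which leukocytes express, had a log2 change of 0.92 ± 0.19 (SE, edgeR adjusted p = 0.0628) in the 21 mo group.

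Under O304 8 of the 32 were lower and 1 higher than in the 21 mo group at an unadjusted p under 0.05, with a median of −0.30, where 12.4% of all genes were lower and 8.27% higher. Tiam1, an activator of Rac, was at −1.63 ± 0.50 (SE, edgeR adjusted p = 0.176). Against the 18 mo group 3 were higher and 2 lower, where 4.33% and 5.33% of all genes were. The small GTPase gene Rap1a, which acts in integrin activation, was at 0.49 ± 0.12 (SE, edgeR adjusted p = 0.334) and the phospholipase gene Plcb3 at −0.50 ± 0.18 (SE, edgeR adjusted p = 0.441).

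All 11 listed genes that switch the receptors off were tested. In the 21 mo group 6 were higher than at 18 months at an unadjusted p under 0.05 and 0 lower, against 14.0% and 12% of all genes, with a median log2 fold change of 0.88. Rgs2, which shortens G protein signalling, was at 1.00 ± 0.22 (SE, edgeR adjusted p = 0.0631). Under O304 6 were lower and 0 higher than in the 21 mo group, against 12.4% and 8.27% of all genes, with a median of −0.57. Rgs16 was at −3.79 ± 1.05 (SE, edgeR adjusted p = 0.175), from 5.36 ± 6.76 CPM in the 21 mo group to 0.39 ± 0.14 CPM, and at −1.95 without 21 mo replicate 3. Against the 18 mo group 0 of the 11 had an unadjusted p under 0.05.

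Of 15 genes for other chemoattractants, their receptors and chemokine processing, 14 were tested, and 5 were higher in the 21 mo group and 0 lower at an unadjusted p under 0.05, against 14.0% and 12% of all genes, with a median log2 fold change of 0.66. C3ar1, the receptor of the complement fragment C3a on macrophages, was at 4.65 ± 0.34, 20.1 ± 12.6 and 8.91 ± 1.67 CPM in that order. Its log2 fold change was 2.11 ± 0.40 (SE, edgeR adjusted p = 0.0626) in the first comparison and −1.17 ± 0.39 (SE, edgeR adjusted p = 0.182) in the second, where it was −0.52 without 21 mo replicate 3. Under O304 2 of the 14 were lower and 0 higher, close to the 12.4% of all genes that were lower, and against the 18 mo group 1 was higher, where 4.33% of all genes were, and 0 lower. These lists hold genes that leukocytes express, and the part of macrophage content in them was not tested.

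Many of these genes are neighbours in the genome, so that they share a locus as well as a role. With gaps of up to 500 kb allowed, 47 of the 67 identifiers fell into 13 clusters and 20 stood alone. On chromosome 11, Ccl2, Ccl7, Ccl11, Ccl12, Ccl8 and Ccl1 lie from 82035571 to 82305690. The 5 tested among them had median log2 fold changes of 2.74, −1.86 and 0.88 in the order of the 3 comparisons, but Ccl11 went the other way from its neighbours in the first 2. The second cluster of that chromosome, from 83525778 to 83664683, holds Ccl5, Ccl9, Ccl6, Ccl3 and Ccl4, with medians of 1.25, −0.56 and 1.04. Within it Ccl6 and Ccl9 ranged over more than a factor of 10 among the 21 mo mice, while Ccl5 ranged from 7.56 to 9.50 CPM.

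On chromosome 5, Cxcl5, Cxcl3, Cxcl15, Cxcl1 and Cxcl2 lie from 90759360 to 90905938, and all 5 had their 2 highest libraries in replicates 2 and 3 of the 21 mo group. Only Cxcl1 and Cxcl2 passed the filter, and for Cxcl3 those libraries held just 3 and 4 counts. Cxcl9 and Cxcl10, from 92321347 to 92348889 on the same chromosome, were highest in different 21 mo mice although they are adjacent. Ccr9, Cxcr6, Xcr1, Ccr1, Ccr1l1, Ccr3 and Ccr2 lie in a receptor cluster on chromosome 9, in which the log2 fold changes of the first comparison ran from −0.25 for Xcr1 to 5.31 for Ccr1.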

How the data were processed

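RNA sequencing of 9 kidneys is described by 1 deposited table. The authors filtered the reads, and the submitters' processing notes name the aligner HISAT2 2.0.5, the read counter featureCounts 1.5.0-p3, DESeq2 1.20.0 and the build GRCm38 (mm10). The deposited counts are whole numbers per gene and library without normalization. The FPKM columns, as deposited, hold the authors' scaling of those counts by gene length and depth, and their library size is not given in the sources used here. The table also holds results of the authors' own tests (log2 fold changes with raw and adjusted p-values), made for ageing and for O304 in the older mice, which were not used. Strand and the treatment of reads with several matches are not given in the sources used here. Coordinates are those of the table. Of the 67 identifiers, 60 paired with a RefSeq gene of GRCm38.p6 by symbol and chromosome, and all 60 overlapped it.

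From the counts, edgeR 4.0.16 (R 4.3.3) was run with filterByExpr (minimum count 10, minimum total 15), TMM and a model of 3 group means over all 9 libraries, with 6 residual degrees of freedom. Tests were two-sided with Benjamini-Hochberg adjustment over all 15902 genes tested. The depth of 15636378 to 18396725 counts leaves genes with a few counts imprecise. For each gene the spread was estimated jointly over all 9 libraries, with 3 mice a group, and edgeR p-values and SEs rest on it. They are thus not specific to the groups compared. The third comparison also carries the spread of the 21 mo mice, the widest at 44.0%, although they are not in it. Single genes were also compared by the exact permutation test of the difference in mean log2 CPM. Scripts were tested on simulated data. Alternatives were DESeq2 1.42.0, its size factors in edgeR, no filter beyond 1 count, fits on the 6 libraries of a comparison, a replicate block, limma voom 3.58.1 with sample quality weights, and leaving out each library.

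The members and the lists of roles, pathways and cell type markers were chosen with earlier results of these data known. Named were, in each comparison, the 12 members with the smallest p, the 2 members of each role with the highest mean FPKM, 12 ligand and receptor pairs, the 4 atypical receptors, and up to 3 genes of each pathway list. Others, such as Cxcl15, Cxcl17, Ccl3, Ccl17 and the sparse receptors, were named after their values were seen. A few genes covered by these rules are not reported here, although counts over the lists include them. No sequences are printed.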

Additional observations from a re-analysis of the deposited data

How the results depend on the processing

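The counts of genes called were the least stable results. In 21 mo against 18 mo edgeR called 3 genes, DESeq2 2058, no filter beyond 1 count 576, only the 6 libraries 0, the replicate block 0 and voom with quality weights 8409, and leaving out a library gave 0 to 4186. The chemokine genes called went from 0 to 16 with DESeq2, 15 without the filter and 23 with voom, and ranged from 0 to 19 with a library left out. The number of chemokine genes tested also differed between these settings. In 21 mo/O304 against 21 mo, the genes called went from 0 to 931 with DESeq2, 17 without the filter and 6528 with voom, and ranged from 0 to 3808 with a library left out, and the chemokine genes to 10, 0 and 22, with a range of 0 to 18. In 21 mo/O304 against 18 mo, the genes called were 125 with DESeq2, 22 on the 6 libraries and 415 with voom, with a range of 0 to 12, and the chemokine genes 3 with DESeq2 and 3 with voom. Voom gave replicate 2 of the 21 mo group a weight of 9.11 and its replicates 1 and 3 weights of 0.223 and 0.132, so its 21 mo values follow that mouse. With it the median log2 fold change of the chemokine genes was 0.26 in the first comparison and 0.11 in the second, where Cxcl13 was at 1.64, Ccr2 at −0.17 and Cx3cr1 at 0.12, and Cxcr2 was at −0.032 in the third. With a library left out, the median ran from 0.78 to 1.15, from −0.67 to −0.0075 and from 0.65 to 0.90 in the 3 comparisons. In the second, Cxcl13 ran from −4.79 to 0.82, Ccl6 from −2.63 to 0.028, Ccr2 from −0.047 to 0.34 and Cx3cr1 from −0.55 to 0.23, and Cxcr2 ran from −0.19 to 0.42 in the third. In the first 2 comparisons the highest counts came without replicate 1 of the 21 mo group, in the third without its replicate 3. The cause was not tested. Over the named genes, 528 values with a library left out and 281 under other settings kept direction and side of the threshold. A further 40 and 91 passed it in the same direction, and 8 and 4 changed direction. DESeq2 size factors left every count as in edgeR.

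The labels give the groups the same replicate numbers. The correlation of deviations ran from −0.13 to 0.17 for same-numbered libraries of different groups and from −0.26 to 0.20 for differently numbered ones. With so few mice a group, this cannot show whether the numbers pair the mice. The replicate block gave 0 chemokine genes called in each comparison, with 0 genes called in the first.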
